A study of Rattus norvegicus with 24 samples.

Results

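The comparison described here sets rat neural stem cells against the cells that were differentiated from them in the absence of vitamin C. It rests on 4 of the 24 samples of the series, all from the Sprague-Dawley strain and all profiled by RNA-seq. The stem cell group, labelled D0, has 2 libraries. The group differentiated without vitamin C, labelled VC-, also has 2 libraries, of which replicate 1 carries a D4 mark and replicate 2 a D5 mark in the deposited table. The members were chosen by these labels, with earlier results of these data known. They were compared as 2 pairs, replicate 1 with replicate 1 and replicate 2 with replicate 2. Of the 12187 genes in the table, 11496 reached 1 CPM in at least 2 of the 4 libraries and were compared. CPM is the read count of a gene scaled to a common library total. In the values below the replicate 1 library of a group always comes first, "before" means the stem cells, and "after differentiation" means the cells differentiated without vitamin C. Nothing in the labels says whether the replicates came from separate cultures or animals, so every p-value below measures only the spread between these samples. The series also profiled DNA methylation, hydroxymethylation and nuclear factor I binding, and cells differentiated with vitamin C. The RNA libraries of the latter entered the fit only as part of the estimate of the spread.

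Neural stem cells in culture are kept dividing by growth factors such as FGF and EGF, which act through receptor tyrosine kinases and the ERK kinase cascade. When these factors are withdrawn the cells leave the cell cycle and turn into neurons, astrocytes and oligodendrocytes, the last by way of a dividing precursor. Vitamin C is a cofactor of dioxygenases that oxidise methylated DNA and histones and that hydroxylate collagen and the hypoxia-inducible factor HIF.

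The libraries held 4811094 and 10299321 reads over the listed genes in stem cells and 5372983 and 11210514 reads without vitamin C, so depth followed the replicate number and not the group. A count of 0 allowed up to 0.378 CPM in the shallowest of these libraries. The replicates also differed in their levels of cell type markers. The 19 markers of microglia and macrophages summed to 7.06 and 6.86 CPM in the stem and differentiated libraries of replicate 1, where 15 and 16 of them had 3 reads or fewer, and to 999 and 1913 CPM in those of replicate 2. The 15 fibroblast and meningeal markers summed to 499 and 539 CPM in replicate 1 and to 11938 and 7923 CPM in replicate 2. Markers of neural stem cells were present in both stem cell libraries, with Sox2, a transcription factor of neural progenitors, at 363 and 337 CPM and Nes, their intermediate filament nestin, at 159 and 116 CPM. Sox2 stood at 452 and 343 CPM without vitamin C, so the differentiated libraries were not without it.

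**Figure D1:**
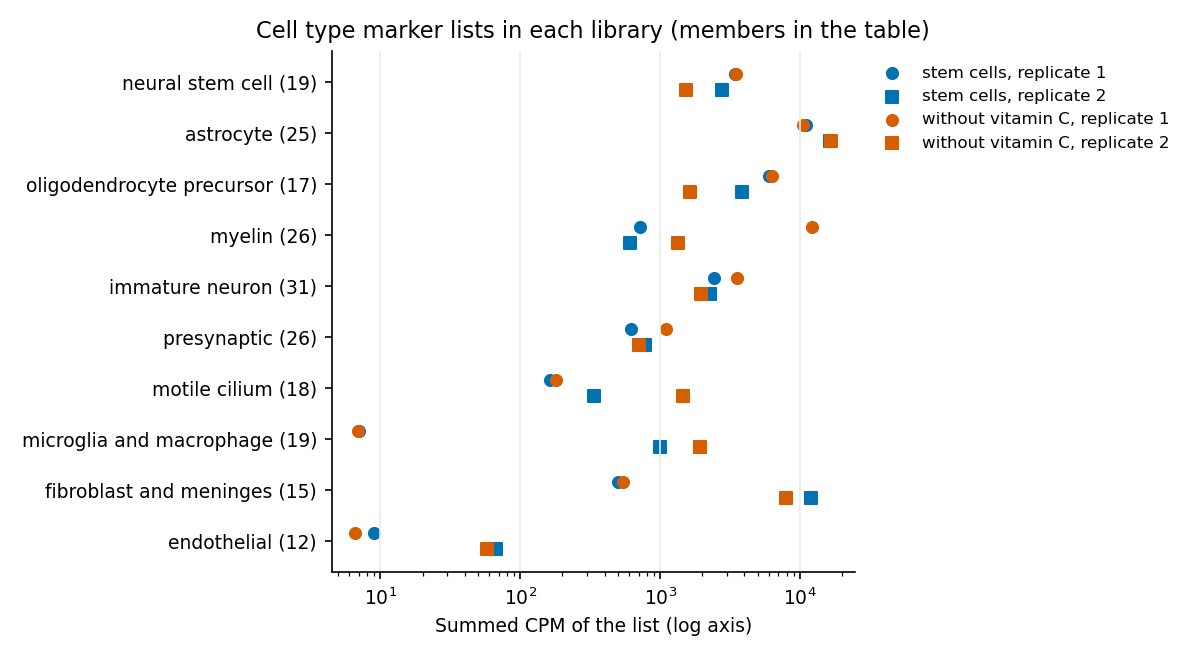
Summed CPM of 10 lists of cell type markers (log axis) in the 2 stem cell libraries (blue) and the 2 libraries differentiated without vitamin C (orange), with circles for replicate 1 and squares for replicate 2. The myelin list parts the groups in both replicates, and the microglia and fibroblast lists part replicate 1 from replicate 2.

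No gene passed limma with a replicate term at a Benjamini-Hochberg adjusted p under 0.05. The smallest adjusted p was 0.151, and 1551 genes (13.5% of those tested) had an unadjusted p under 0.05, of which 686 were higher and 865 lower without vitamin C. edgeR's quasi-likelihood test on the recovered reads with the same term also called 0 genes, with 1578 at an unadjusted p under 0.05. DESeq2 on those reads with the same term, an alternative set out beside limma, called 174 genes higher (1.51% of those tested) and 268 lower (2.33%), and 173 and 268 of these had the same direction in both pairs. The counts that follow therefore rest on the direction and size of each gene in the pairs, and a DESeq2 call is named as such. Without the replicate term DESeq2 called 18 higher and 45 lower. Without the stem cell library of replicate 1 limma called 377 genes higher and 466 lower, and without that of replicate 2 it called 636 and 438; the spread then comes only from the libraries with and without vitamin C. With 2 libraries against 2, an exact permutation test of a single gene cannot go below 0.333.

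Across all genes tested, 3259 (28.3%) were higher without vitamin C in both pairs, 3465 (30.1%) were lower in both and 4772 (41.5%) went in opposite directions or had a difference of 0 in a pair. At least 1 log2 unit of difference in the same direction in both pairs, which is a 2-fold difference on the log2(CPM + 0.5) scale, was found for 211 genes (1.84%) on the higher side and 259 (2.25%) on the lower side. DESeq2 called 129 and 183 of these. The shares over all genes tested, here and in the DESeq2 calls, are the backgrounds given beside counts of the gene lists below. The 2 libraries of one group did not overlap with those of the other for 3112 genes (27.1%), which were higher in 13.7% and lower in 13.4% of those tested. With a pseudocount of 2 in place of 0.5 the higher side held 94 genes, and with at least 5 CPM in 2 libraries it held 133. The median log2 difference over all genes was -0.0015. The differences of the 2 pairs had a Pearson r of 0.312 across genes, which are not independent replicates. In the plot of the pairs the lower left holds most mitosis genes and many of the FGF and ERK feedback list. The far right holds myelin genes.

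**Figure D2:**
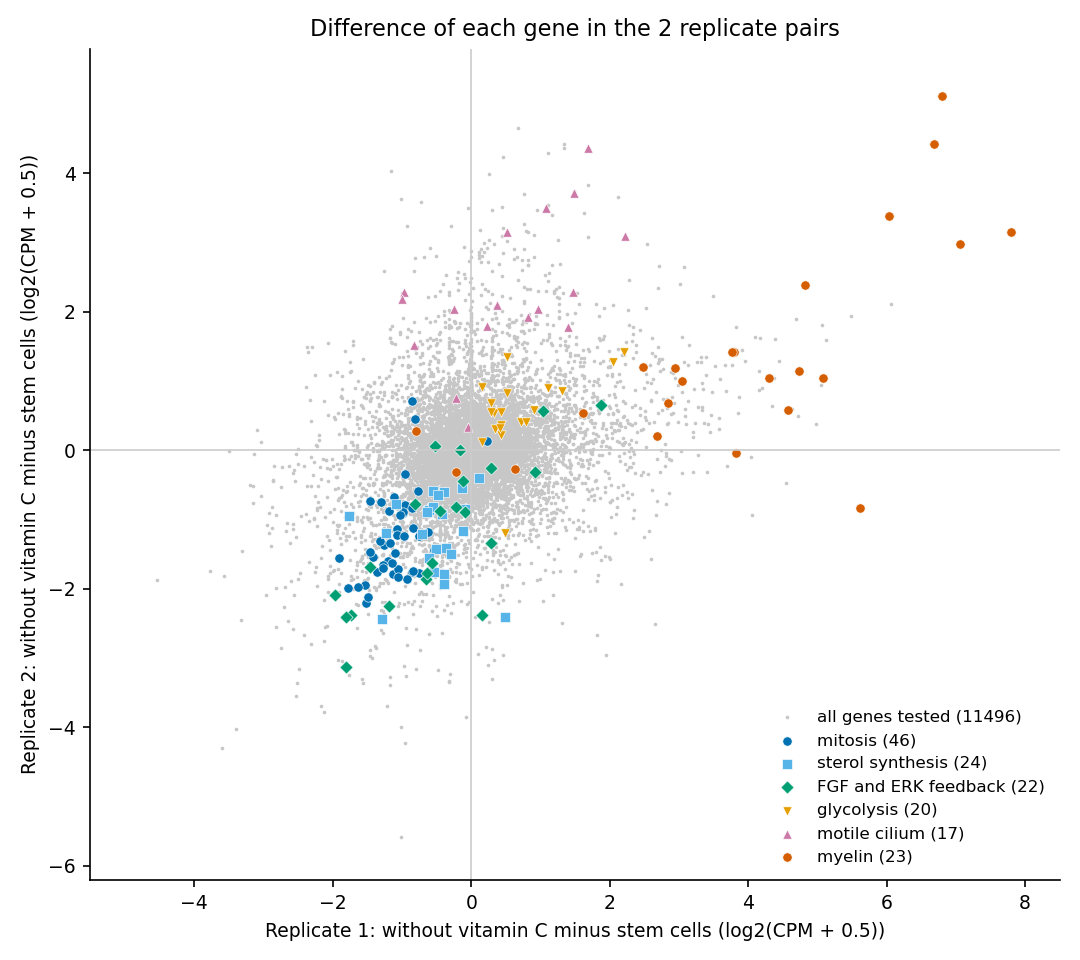
Log2 difference of each gene tested between cells differentiated without vitamin C and stem cells, in replicate 1 (horizontal) and replicate 2 (vertical), on the log2(CPM + 0.5) scale, with 6 gene lists coloured. Mitosis genes lie low on both axes, myelin genes extend farther to the right in replicate 1 than they rise in replicate 2, and motile cilium genes lie higher in replicate 2.

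The genes named first were picked by smallest limma p and the same direction in both pairs. DESeq2 read the same libraries, so its calls on these genes are not separate support. On the higher side it called all of them, and several are expressed in glia. The astrocyte list as a whole, given below, did not move in one direction. Synm encodes synemin, an intermediate filament protein of astrocytes, and stood at 4.67 and 17 CPM in D0 libraries against 43.1 and 109 CPM in VC- libraries. Both differentiated libraries exceeded both stem cell libraries, and the log2 difference was 2.86 (SE 0.29, limma adjusted p 0.162, DESeq2 adjusted p 3.86e-10). Maob, the monoamine oxidase that astrocytes carry, was at 2.4 and 5.26 CPM before and 16.4 and 45.1 CPM after differentiation, again without overlap (log2 difference 2.76, SE 0.23, DESeq2 adjusted p 1.95e-11). Mag, an adhesion protein of the inner myelin sheath, had 5.55 and 1.31 CPM in D0 libraries against 621 and 38.7 CPM in VC- libraries. Every differentiated library exceeded every stem cell library, although the replicates of the differentiated cells lay far apart. Its log2 difference was 5.56 (SE 0.62, DESeq2 adjusted p 5.50e-23).

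The same side held genes of several other functions. Fbxo2, a substrate adaptor of a ubiquitin ligase, stood at 4.16 and 19.9 CPM before and 29.9 and 103 CPM after differentiation and Igsf11, an immunoglobulin-family adhesion protein, at 14.8 and 17 CPM in D0 libraries against 72.7 and 70.9 CPM in VC- libraries. The 2 replicates of Igsf11 lay close together in each group, and its log2 difference of 2.15 had an SE of 0.16 and a limma adjusted p of 0.151. Aox1, an aldehyde oxidase, was at 9.33 and 19 CPM before and 33.8 and 84.2 CPM after differentiation. These groups did not overlap. Atp2b2, a calcium pump of the plasma membrane, was at 2.02 and 6.37 CPM in D0 libraries against 9.88 and 29 CPM in VC- libraries, and Pcp4, a calmodulin-binding protein of neurons, at 4.79 and 14.4 CPM before and 59.1 and 69.7 CPM after differentiation. Stk32a, a serine/threonine kinase, was at 1.64 and 1.25 CPM in D0 libraries against 16.9 and 8.76 CPM in VC- libraries. Id4, an inhibitor of basic helix-loop-helix factors, was among them but its groups overlapped: it was at 8.83 and 37.2 CPM before and 28.1 and 86.9 CPM after differentiation, higher in the differentiated library of each pair but with the stem cell library of replicate 2 above the differentiated library of replicate 1.

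DESeq2 also called all of the genes named first on the lower side, which were picked in the same way. Itga6, the integrin subunit through which neural stem cells bind laminin, stood at 146 and 179.7 CPM in D0 libraries against 48.7 and 53.5 CPM in VC- libraries. The values of each group lay close together and far from those of the other, with a log2 difference of -1.66 (SE 0.16, limma adjusted p 0.162, DESeq2 adjusted p 1.98e-07). Col5a3, a fibrillar collagen chain, was at 625 and 451 CPM before and 149 and 125 CPM after differentiation (log2 difference -1.96, SE 0.21, DESeq2 adjusted p 3.36e-08). Sorcs1, a sorting receptor of the sortilin family, was at 149 and 245 CPM in D0 libraries against 26.3 and 27.1 CPM in VC- libraries. Ntm, a GPI-anchored adhesion protein of neurons, was at 66.1 and 45.5 CPM before and 20.6 and 13.4 CPM after differentiation, and Pgap1, an enzyme that remodels GPI anchors, at 138 and 52.9 CPM in D0 libraries against 45.8 and 17.7 CPM in VC- libraries. Arhgap11a, a GTPase-activating protein, was at 94.2 and 44.8 CPM before and 32.7 and 12.9 CPM after differentiation, and Evc2, a protein of the cilium base, at 43.5 and 51.2 CPM in D0 libraries against 10.7 and 15.2 CPM in VC- libraries. In each of these genes both differentiated libraries were below both stem cell libraries. Tenm4, a teneurin adhesion receptor, differed more between replicates than between groups: it was at 32.3 and 418 CPM before and 7.32 and 101 CPM after differentiation, lower in each pair by a similar step (-2.07 and -2.04 log2 units) although the groups overlapped.

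**Figure D3:**
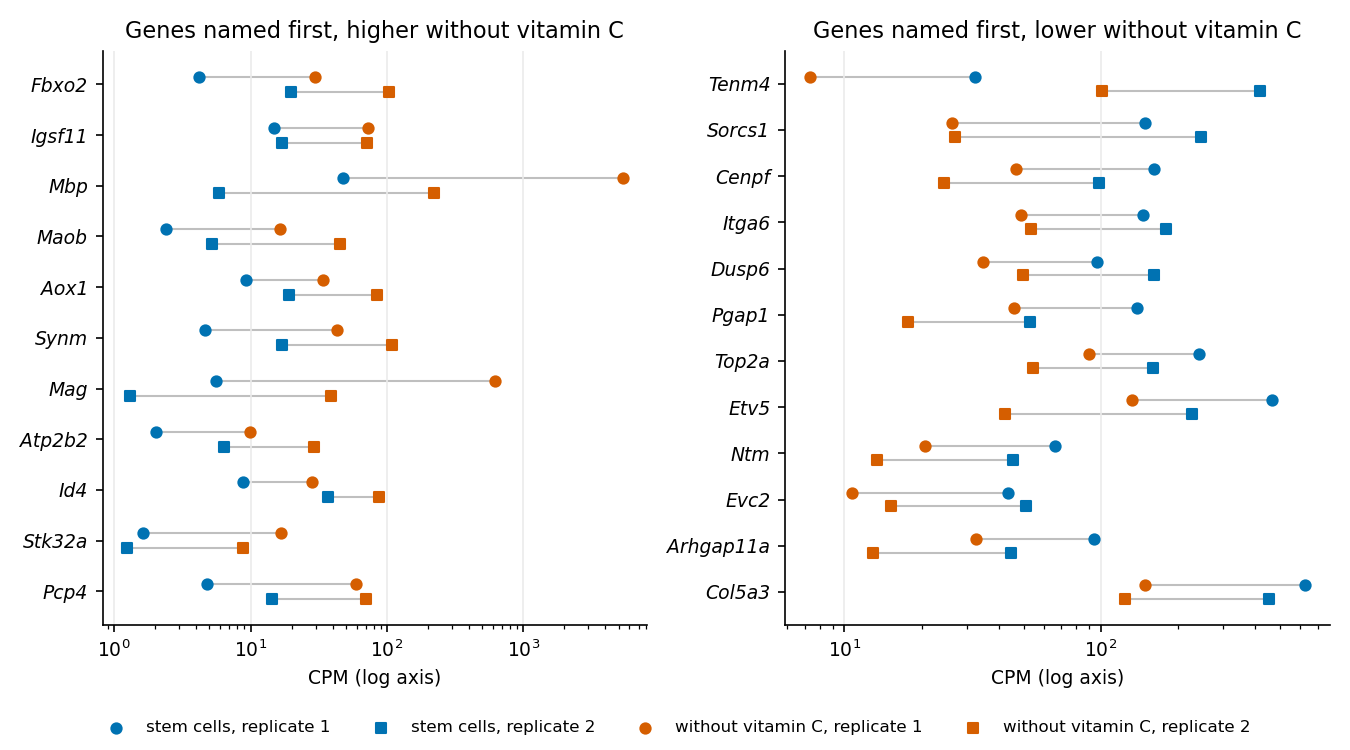
CPM (log axis) of the genes named first on each side, with blue for stem cells, orange for cells differentiated without vitamin C, circles for replicate 1, squares for replicate 2 and a grey line joining the libraries of a pair. Only genes that shifted the same way in both pairs could be named here, so that agreement comes from the choice. The groups overlap in Id4 and Tenm4.

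Myelin genes, which mature oligodendrocytes express, had the highest median of the 48 gene lists over both pairs and in replicate 1, though not in replicate 2. Of 23 myelin genes tested, 18 were higher in both pairs (background 28.3%), 14 by at least 1 log2 unit (background 1.84%). DESeq2 called 13 higher (background 1.51%) and 0 lower. Their median log2 difference was 2.58, 3.82 in replicate 1 and 1.04 in replicate 2. Mbp, the basic protein that compacts the myelin sheath, was at 47.3 and 5.85 CPM in D0 libraries against 5346 and 221 CPM in VC- libraries. Mobp, another compact myelin protein chosen here after its values were seen, had 2 and 0 reads in stem cells and 1438 and 74 reads without vitamin C. Cldn11, the tight junction protein of the sheath, and Myrf, the transcription factor that starts the myelin programme, were also chosen after their values were seen: Cldn11 was at 2.4 and 4.27 CPM before and 385 and 37.3 CPM after differentiation, and Myrf at 13 and 24.2 CPM in D0 libraries against 359 and 54.3 CPM in VC- libraries. All of these genes were higher in both pairs, and in each the replicate 1 differentiated library held the highest level. Not every myelin gene did so: Mog, a protein of the outer sheath picked with its values in view, had 14 and 8.8 CPM before and 22 and 7.25 CPM after differentiation, with the replicate 2 value lower after differentiation.

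Genes of the oligodendrocyte precursor went in both directions. Of 16 tested, 4 (25%) were higher and 5 (31.2%) lower in both pairs, near the backgrounds of 28.3% and 30.1%. The median was 0.35 (1.04 in the replicate 1 pair, -0.67 in the other). Sox10, the transcription factor of the whole lineage, was at 26.5 and 7.16 CPM in D0 libraries against 227 and 18.2 CPM in VC- libraries (log2 difference 2.18, DESeq2 adjusted p 0.00124), and Gpr17, a receptor of cells about to myelinate, at 8.7 and 2.56 CPM before and 192 and 8.87 CPM after differentiation (DESeq2 adjusted p 7.09e-05). The groups of Gpr17 nearly touched, with the replicate 1 stem cell library just below the replicate 2 differentiated library. Cspg4, the NG2 proteoglycan of dividing precursors, was lower, at 175 and 59 CPM in D0 libraries against 62.1 and 14.7 CPM in VC- libraries (DESeq2 adjusted p 8.45e-06). Ptprz1, a receptor phosphatase of precursors and stem cells, was at 3292 and 2489.8 CPM before and 1522 and 600.4 CPM after differentiation, also lower in both pairs (DESeq2 adjusted p 0.00158). Olig2, which specifies the lineage, was at 419 and 127 CPM in D0 libraries against 765 and 61.6 CPM in VC- libraries, higher in replicate 1 and lower in replicate 2, and Olig1 split in the same way. In bulk samples fewer cells of a type and less RNA per cell cannot be told apart, for these and all later lists.

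The neuronal lists shifted less than the myelin list. Of 29 genes of young neurons, 13 were higher and 7 lower in both pairs (backgrounds of 28.3% and 30.1%). DESeq2 called 5 higher and 1 lower (backgrounds of 1.51% and 2.33%). The median was 0.53, but it was 1.11 in replicate 1 and 0.0089 in replicate 2. Mapt, the axonal microtubule protein tau, was at 8.45 and 28.3 CPM before and 53 and 66.9 CPM after differentiation (log2 difference 1.9, DESeq2 adjusted p 0.00107), so both differentiated libraries exceeded both stem cell libraries. Dcx, the doublecortin of migrating neurons, was at 82.2 and 83.2 CPM in D0 libraries against 139 and 61.6 CPM in VC- libraries, higher in replicate 1 and lower in replicate 2. Map2, a dendritic microtubule protein, was at 278 and 220.1 CPM before and 212 and 137 CPM after differentiation, lower in both pairs, with a DESeq2 adjusted p of 0.353. Rbfox3, which encodes the nuclear antigen NeuN of mature neurons and was picked with its values in view, had 3.15 and 6.44 CPM in D0 libraries against 7.44 and 10.6 CPM in VC- libraries.

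Of the 26 presynaptic genes, 13 were higher in both pairs and 3 lower (backgrounds of 28.3% and 30.1%). The median was 0.37, with no DESeq2 call on the higher side. Vamp2, the vesicle SNARE, was at 98.4 and 74.7 CPM before and 149 and 91.8 CPM after differentiation. DESeq2 called 1 presynaptic gene lower, which is 3.85% of the list (background 2.33%), so the call says little about the list. It was Sv2b, a vesicle glycoprotein, at 20.1 and 46.6 CPM in D0 libraries against 6.98 and 5.53 CPM in VC- libraries (DESeq2 adjusted p 0.0485). Of 18 genes of GABA synthesis, transport and reception, 7 were higher and 6 lower in both pairs (backgrounds of 28.3% and 30.1%). The median of the GABA genes was 0.075. DESeq2 called 1 of these genes, lower (background 2.33%). It was Slc6a11, a GABA transporter of astrocytes, which fell from 374 and 512 CPM to 166 and 48.5 CPM (DESeq2 adjusted p 0.00107). Of 21 glutamate receptor genes, DESeq2 called 3 lower (background 2.33%) and 0 higher. All 3 of these were also at least 1 log2 unit lower in both pairs (background 2.25%). Among them were Grm5, a metabotropic receptor, and Gria3, an AMPA receptor subunit. Grm5 was at 83.1 and 77.7 CPM before and 22.3 and 8.97 CPM after differentiation, and Gria3 was at 72.6 and 70.3 CPM in D0 libraries against 9.88 and 17.4 CPM in VC- libraries, each without overlap of the groups. The list went in opposite directions in the pairs for 11 genes, and its median of 0.077 stood between 0.40 in replicate 1 and -0.40 in replicate 2.

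Of 23 sodium and calcium channel genes, 10 were higher and 5 lower in both pairs (backgrounds of 28.3% and 30.1%), with a median of 0.089. DESeq2 called 2, both lower, among them Cacna1h, a low-voltage calcium channel, at 231 and 214 CPM before and 129 and 124 CPM after differentiation, beside 2.33% of all genes tested called lower. Of 28 potassium channel genes DESeq2 called none, and 9 (32.1%) were higher and 7 (25%) lower in both pairs. These shares were near the backgrounds of 28.3% and 30.1%, and the median was 0.080. Kcnj10, the inward rectifier of glia, was at 33.4 and 17.2 CPM in D0 libraries against 23 and 5.91 CPM in VC- libraries, lower in each pair (DESeq2 adjusted p 0.171).

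The astrocyte list did not move in one direction. Of 24 genes tested, 7 (29.2%) were higher and 8 (33.3%) lower in both pairs, near the backgrounds of 28.3% and 30.1%. The median was -0.037. DESeq2 called 3 higher (background 1.51%), which were Gfap, Agt and Clu, and 1 lower (background 2.33%), which was Cst3. Gfap, the intermediate filament of mature and reactive astrocytes, was at 1.77 and 57.9 CPM before and 101 and 224 CPM after differentiation (log2 difference 3.71, SE 0.88, DESeq2 adjusted p 6.79e-04). The groups did not overlap, and the lowest value, in the stem cells of replicate 1, rested on 14 reads. Agt, the angiotensinogen made by astrocytes, was at 7.82 and 4.8 CPM in D0 libraries against 50.5 and 13.5 CPM in VC- libraries, and Clu, the secreted chaperone clusterin, at 35.6 and 433 CPM before and 267 and 954 CPM after differentiation. Cst3, a secreted inhibitor of cathepsins, went the other way at 3067 and 3531 CPM in D0 libraries against 1237 and 713 CPM in VC- libraries, with a log2 difference of -1.81 (SE 0.43, DESeq2 adjusted p 0.00121). The glutamate transporter Slc1a3, named after its values were seen, was lower in both pairs, at 606 and 852 CPM before and 421 and 441 CPM after differentiation, and DESeq2 did not call it.

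Neural stem cell markers were lower more often than higher. Of 19 tested, 12 were lower and 2 higher in both pairs (backgrounds of 30.1% and 28.3%). The median was -0.43 (-0.15 in the replicate 1 pair, -0.58 in the other). DESeq2 called Nes and Egfr lower (background 2.33%). Egfr, the EGF receptor, was at 194 and 132 CPM in D0 libraries against 85 and 27.2 CPM in VC- libraries (log2 difference -1.72, SE 0.33, DESeq2 adjusted p 0.00105), without overlap of the groups. Pax6, a transcription factor of dorsal progenitors, was almost the same in each pair, at 13.9 and 5.32 CPM before and 13.7 and 5.48 CPM after differentiation. Prom1, a membrane protein of stem cells and ependymal cells, was at 103 and 686 CPM in D0 libraries against 92.4 and 152 CPM in VC- libraries, so its difference lay mostly in replicate 2. Fabp7, the fatty acid carrier of radial glia, was at 1961 and 768 CPM before and 2152 and 468 CPM after differentiation, higher in replicate 1 and lower in replicate 2.

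Genes of the motile cilium, the beating organelle of ependymal cells, were higher. Of 17 tested, 11 were higher in both pairs and 0 lower (backgrounds of 28.3% and 30.1%), and DESeq2 called 7 higher (background 1.51%). The median was 1.37, with 0.52 in replicate 1 and 2.1 in replicate 2, so the larger differences were in replicate 2. RFX factors bind the promoters of many ciliary genes, and the letters GTTGCNNGG, from one side of the site they recognise, were sought on both strands in the 250 bases before the annotated start. Of the 17 genes, 13 (76.5%) could be matched to a RefSeq promoter, and no share is given over the list. Of all genes tested, 77.3% could be matched. The letters stood in 4.73% of the promoters of genes tested and in 4.26% of the 33469 rat promoters in the table. The stretches below show the match, in capitals, in 3 ciliary genes that were higher in both pairs, so that the letters searched can be seen in place. They come from RefSeq on the GRCr8 build, which is not the rn5 build named for these data, and are at chr17:86261924-86261992 (plus strand) for Spag6, chr19:61429024-61429079 (plus strand) for Dynlrb2 and chr2:46363824-46363863 (plus strand) for Ccno.
Spag6: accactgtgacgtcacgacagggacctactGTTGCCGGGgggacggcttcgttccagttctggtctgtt
Dynlrb2: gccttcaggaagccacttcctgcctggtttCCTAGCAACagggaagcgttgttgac
Ccno: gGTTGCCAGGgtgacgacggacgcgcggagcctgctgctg

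A match of this kind is a description of the letters and not of binding. Spag6, a protein of the central pair of the axoneme, was at 0.631 and 4.34 CPM in D0 libraries against 2.67 and 63.3 CPM in VC- libraries. Dynlrb2, a dynein light chain, was at 1.39 and 6.24 CPM before and 3.49 and 75.9 CPM after differentiation. Ccno, the cyclin of centriole multiplication, was at 0.252 and 4.86 CPM in D0 libraries against 0.581 and 47.2 CPM in VC- libraries. Its stem cell value in replicate 1 is under the 0.378 CPM that a count of 0 allowed there, so its direction in that pair is uncertain. All 3 genes were chosen for their sequence after the values were seen. In each the differentiated library of replicate 2 stood far above the other 3 libraries. Rsph1, a radial spoke protein, had 3 and 93 reads in stem cells and 31 and 1048 reads without vitamin C. Ccdc40, which spaces the dynein arms, was at 8.07 and 22.6 CPM before and 23.3 and 112 CPM after differentiation (DESeq2 adjusted p 7.88e-05), and Ak7, an axonemal adenylate kinase, at 0.631 and 7.29 CPM in D0 libraries against 3.14 and 161 CPM in VC- libraries. Foxj1, the master transcription factor of motile ciliogenesis, was at 25.1 and 87.3 CPM before and 29.5 and 304 CPM after differentiation, close to level in replicate 1, and its DESeq2 adjusted p was 0.424. The part of the D4 and D5 marks, and of the cell type markers that set replicate 2 apart, in these differences was not tested.

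Genes of cell division were lower almost throughout. Of 46 mitosis genes tested, 43 were lower in both pairs against a background of 30.1%, and 1 was higher. In both pairs 22 were lower by at least 1 log2 unit (background 2.25%). DESeq2 called 26 of the 46 lower (background 2.33%) and 0 higher. This list, like the others, was chosen with earlier results of these data known, so the background gives scale and is not a test. The median was -1.26 (-1.07 in replicate 1 and -1.35 in replicate 2). Many late cell cycle promoters carry the CHR, an element with the letters TTTGAA that the DREAM and B-MYB complexes bind. Of the 46 genes, 38 (82.6%) matched a RefSeq promoter, and 20 of these (52.6%) held the letters on either strand in the 250 bases before the start, beside 10% of the 8886 genes tested that matched a promoter and 16.2% of all 33469 promoters. The letters CCAAT stood in 29 (76.3%), beside 35.1% of the promoters of genes tested and 34.0% of all promoters. The letters of an E2F element (TTCCCGC or TTGGCGC) stood in 6 (15.8%), beside 9.89% of the promoters of genes tested and 5.0% of all promoters. The promoter stretches of 3 members that were lower by at least 1 log2 unit in both pairs are given with the CHR letters, or their reverse complement TTCAAA, in capitals. They are from RefSeq on GRCr8, at chr10:84473094-84473145 (minus strand) for Top2a, chr1:241840870-241840935 (plus strand) for Kif20b and chr1:199952657-199952722 (minus strand) for Mki67.
Top2a: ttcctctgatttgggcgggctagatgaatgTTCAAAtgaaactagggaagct
Kif20b: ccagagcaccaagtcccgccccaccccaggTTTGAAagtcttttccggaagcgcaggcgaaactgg
Mki67: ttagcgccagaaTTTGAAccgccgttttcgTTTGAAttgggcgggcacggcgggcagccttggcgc

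Mki67 held the letters at 2 places in that stretch, and all 3 genes were lower in both pairs. Top2a, the topoisomerase that untangles chromosomes, was at 241 and 159 CPM in D0 libraries against 90 and 54.3 CPM in VC- libraries. Kif20b, a kinesin of cytokinesis picked for its sequence with its values in view, had 45.5 and 26.8 CPM before and 14.3 and 6.45 CPM after differentiation. Cenpf, a kinetochore protein, was at 162 and 98.4 CPM in D0 libraries against 46.6 and 24.4 CPM in VC- libraries (log2 difference -1.89, SE 0.18, limma adjusted p 0.162, DESeq2 adjusted p 4.58e-08). Bub1, a kinase of the spindle checkpoint, was at 92.1 and 41.1 CPM before and 24.1 and 13.6 CPM after differentiation. For each of these genes both differentiated libraries were below both stem cell libraries, and none of the 4 libraries was without them.

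Genes of DNA replication and repair were lower by a smaller step. Of 44 DNA replication genes, 37 were lower and 0 higher in both pairs (backgrounds of 30.1% and 28.3%). By at least 1 log2 unit 4 were lower (background 2.25%), and the median was -0.63. Tk1, the thymidine kinase of S phase, was at 102 and 60 CPM in D0 libraries against 38.4 and 15 CPM in VC- libraries (DESeq2 adjusted p 1.43e-05), and Mcm3, a subunit of the replicative helicase, at 73.8 and 48.3 CPM before and 30.5 and 20.4 CPM after differentiation (DESeq2 adjusted p 0.00178). Mcm7 of the same helicase was an exception, at 137 and 113 CPM in D0 libraries against 142 and 59.9 CPM in VC- libraries, nearly level in replicate 1. Of 18 genes of homologous recombination and the Fanconi pathway, 16 were lower in both pairs (background 30.1%), with a median of -0.91. Fancd2, which is loaded at stalled forks, was at 56.6 and 32.4 CPM before and 21.7 and 10.9 CPM after differentiation. DESeq2 called it and Brca1 lower and no other (background 2.33%). Brca1 was at 34.6 and 19.3 CPM in D0 libraries against 12.7 and 8.87 CPM in VC- libraries.

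Drivers of the cell cycle and its inhibitors were both lower more often than higher. Of 19 G1 cyclin, MYC and E2F genes, 12 were lower in both pairs and 1 was higher (backgrounds of 30.1% and 28.3%), with a median of -0.53. That list also holds drivers of later phases of the cell cycle. Ccnd2, a D-type cyclin, was at 53.5 and 119 CPM before and 21 and 45 CPM after differentiation (DESeq2 adjusted p 0.00762). Cdk4, its kinase partner, was at 233 and 168 CPM in D0 libraries against 273 and 109.6 CPM in VC- libraries, higher in replicate 1 and lower in replicate 2. Of 16 inhibitors, 11 were lower and 1 was higher in both pairs (backgrounds of 30.1% and 28.3%), with a median of -0.42. The one on the higher side was Cdkn1c, the p57 inhibitor, at 47.7 and 61.8 CPM before and 251 and 67.2 CPM after differentiation, where the replicate 1 differentiated library stood apart from the other 3 (DESeq2 adjusted p 0.288).

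Genes of FGF signalling and ERK feedback, a list that also holds receptors and ligands, were lower more often than higher. Of 22 tested, 14 were lower and 2 higher in both pairs (backgrounds of 30.1% and 28.3%). By at least 1 log2 unit 6 were lower (background 2.25%), and DESeq2 called 9 lower (background 2.33%). The median was -0.73 (-0.49 in replicate 1 and -1.12 in replicate 2). Among the receptors, Fgfr1 was at 455 and 944 CPM in D0 libraries against 259 and 552 CPM in VC- libraries (DESeq2 adjusted p 0.0225). Among the feedback inhibitors, which ERK induces and which then dampen it, Dusp6, an ERK phosphatase, was at 96.5 and 161 CPM before and 34.6 and 49.6 CPM after differentiation, with a log2 difference of -1.57 (SE 0.15, limma adjusted p 0.162, DESeq2 adjusted p 1.44e-06). Spry1, a Sprouty inhibitor, was at 53.1 and 141 CPM in D0 libraries against 15.6 and 26.7 CPM in VC- libraries, and the log2 difference was -2.06 (DESeq2 adjusted p 4.58e-07). For Dusp6 and Spry1 both differentiated libraries lay below both stem cell libraries, while the groups of Fgfr1 overlapped. Among the transcription factors, Etv5 was at 464 and 226 CPM before and 133 and 42.1 CPM after differentiation, and Etv4, which was picked with its values in view, had 111 and 132 CPM in D0 libraries against 31.2 and 14.7 CPM in VC- libraries. The highest levels of Etv5 were thus in the stem cells of replicate 1, and the lowest in the differentiated cells of replicate 2.

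Notch pathway genes followed the same side. Of 18 tested, 11 were lower and 2 higher in both pairs (backgrounds of 30.1% and 28.3%). The median was -0.69 (-0.24 in the replicate 1 pair, -1.04 in the other). Among the receptors, Notch2 was at 436 and 411 CPM before and 153 and 211 CPM after differentiation (DESeq2 adjusted p 0.00208) and Notch1 at 716 and 664 CPM in D0 libraries against 525 and 258 CPM in VC- libraries (DESeq2 adjusted p 0.166). Jag1, a ligand, was at 26.5 and 101 CPM before and 7.09 and 46.3 CPM after differentiation, and Lfng, which modifies the receptors with sugar, at 139.7 and 271 CPM in D0 libraries against 67.9 and 96.8 CPM in VC- libraries, with DESeq2 adjusted p-values of 0.00338 and 0.00411. One target gene went the other way: Hey1, a transcriptional repressor named as the list's single DESeq2 call on the higher side, was at 3.66 and 8.48 CPM before and 10.7 and 19.2 CPM after differentiation. All 11 Hedgehog genes but 1 were lower in both pairs (background 30.1%), with a median of -0.56 and no DESeq2 call. Shh, the ligand, was at 2.9 and 117 CPM in D0 libraries against 2.21 and 11.1 CPM in VC- libraries, so its difference lay mostly in replicate 2.

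The BMP and Wnt lists split. Of 25 BMP and Id genes, 10 were higher and 6 lower in both pairs (backgrounds of 28.3% and 30.1%), with a median of 0.15. DESeq2 called Id4, Bmp6 and Msx1 higher (background 1.51%). Bmp6, a ligand, was at 0.631 and 6.9 CPM before and 2.67 and 99 CPM after differentiation (DESeq2 adjusted p 2.51e-04) and Msx1, a homeobox target, at 1.51 and 14.1 CPM in D0 libraries against 5.0 and 52 CPM in VC- libraries (DESeq2 adjusted p 0.0194). Both were lowest in the stem cells of replicate 1 and highest in the differentiated cells of replicate 2. Of 23 Wnt genes, 17 went in opposite directions in the pairs (background 41.5%), and the pair medians were 0.25 and -1.11. DESeq2 called 2 lower (background 2.33%). The receptor Fzd1 was at 36.3 and 227 CPM before and 20.2 and 64.2 CPM after differentiation. The secreted inhibitor Wif1 was at 2.4 and 118 CPM in D0 libraries against 1.16 and 12.8 CPM in VC- libraries. Of 39 axon guidance genes, 20 went in opposite directions in the pairs (background 41.5%). In both pairs 12 were lower and 7 higher (backgrounds of 30.1% and 28.3%), and the pair medians were 0.36 and -0.85. DESeq2 called 5 of the 39 lower (background 2.33%) and 0 higher. The lower calls included 3 of the 6 class 3 semaphorins in the list, which are secreted guidance proteins: Sema3a was at 72.6 and 34 CPM before and 29.9 and 8.65 CPM after differentiation, Sema3e at 52.3 and 28.1 CPM in D0 libraries against 18.4 and 9.4 CPM in VC- libraries and Sema3f at 7.95 and 125 CPM before and 3.6 and 54.3 CPM after differentiation, with DESeq2 adjusted p-values of 0.00113, 0.00142 and 0.0165. The class was not uniform: over all 6, 4 were lower and 1 higher in both pairs, and Sema3b, picked with its values in view, had 0.631 and 12.5 CPM in D0 libraries against 2.21 and 16.1 CPM in VC- libraries.

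**Figure D4:**
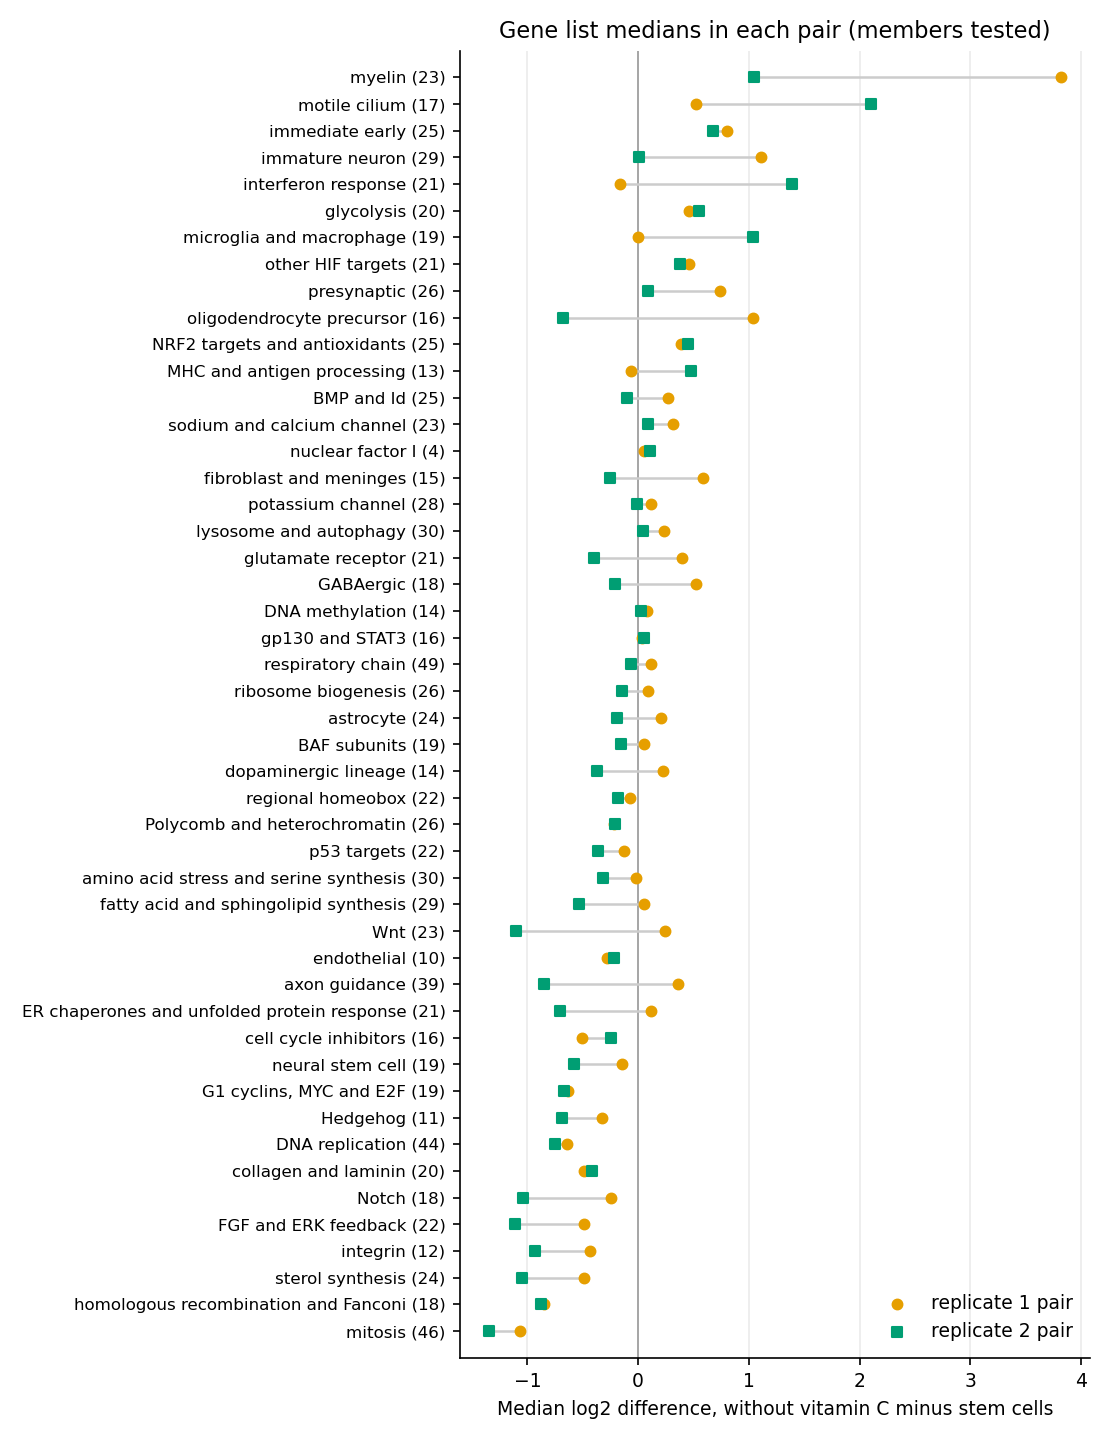
Median log2 difference of the tested members of each of 48 gene lists in the replicate 1 pair (orange circles) and the replicate 2 pair (green squares), ordered by the median over both, with the number of members in brackets. Both pair medians lie above 0 for 13 lists and below 0 for 17, with the mitosis list lowest and the myelin list highest, and Wnt, axon guidance and oligodendrocyte precursor lists have medians on either side of 0.

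Matrix and matrix receptor genes were lower more often than higher. Of 20 collagen and laminin genes, 12 were lower and 3 higher in both pairs (backgrounds of 30.1% and 28.3%), with a median of -0.66. By at least 1 log2 unit in both pairs, 2 were lower and 2 higher (backgrounds of 2.25% and 1.84%). The higher ones were Col23a1, a transmembrane collagen, at 0.883 and 36.9 CPM before and 4.53 and 112 CPM after differentiation, and Lamc3, a laminin chain, at 0.504 and 23.9 CPM in D0 libraries against 1.51 and 59.6 CPM in VC- libraries; DESeq2 called neither, and in both genes the replicates differed more than the groups. DESeq2 called 3, all lower (background 2.33%): Col5a3, Col4a1 and Lama5. Col4a1, a basement membrane collagen, was at 971 and 3115 CPM before and 137 and 1633 CPM after differentiation (DESeq2 adjusted p 0.00617), with log2 differences of -2.82 in replicate 1 and -0.93 in replicate 2. Lama5, a laminin chain, was at 126 and 277 CPM in D0 libraries against 39.2 and 115 CPM in VC- libraries (DESeq2 adjusted p 0.00248). Of 12 integrins, 7 were lower and 3 higher in both pairs (backgrounds of 30.1% and 28.3%). DESeq2 called Itga6, Itga5 and Itga8 lower (background 2.33%). Itga5, the fibronectin receptor subunit, was at 26 and 99.5 CPM before and 6.51 and 46.6 CPM after differentiation, and Itga8, which binds nephronectin, at 19.5 and 14.7 CPM in D0 libraries against 4.53 and 4.03 CPM in VC- libraries. Of the 15 fibroblast and meningeal markers, whose levels separated the replicates, 2 were higher and 4 lower in both pairs (backgrounds of 28.3% and 30.1%). Among them, Col1a1, a fibrillar collagen of fibroblasts, was at 39.1 and 5968 CPM before and 115 and 2969 CPM after differentiation, higher in replicate 1 and lower in replicate 2. Their part in the values of the matrix genes was not tested.

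Glycolysis genes were higher in nearly every case, by small steps. Of 20 tested, 19 were higher in both pairs against a background of 28.3%, and the exception was Aldoc, the aldolase of astrocytes, at 157 and 313 CPM in D0 libraries against 221 and 137 CPM in VC- libraries. The median was 0.51, with 0.46 in replicate 1 and 0.55 in replicate 2. This list too was chosen with earlier results of these data known, so the background is not a test. DESeq2 called 4 higher (background 1.51%): Pfkl, Pfkp, Pfkfb3 and Aldoa. Pfkl, a phosphofructokinase, was at 41.5 and 162 CPM before and 174 and 393 CPM after differentiation (log2 difference 1.66, SE 0.24, DESeq2 adjusted p 6.39e-05), and Pfkfb3, which makes the activator of phosphofructokinase, was at 6.68 and 22.8 CPM in D0 libraries against 32.8 and 61.7 CPM in VC- libraries (DESeq2 adjusted p 2.24e-04). For Pfkl the groups did not overlap. Gapdh and Eno1, further down the pathway, differed less, at 639.9 and 599 CPM before and 861 and 702 CPM after differentiation and at 412 and 422 CPM in D0 libraries against 501 and 618 CPM in VC- libraries.

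Other targets of HIF, the factor induced by low oxygen, were mixed. Of 21 tested, 12 were higher and 6 lower in both pairs (backgrounds of 28.3% and 30.1%), with a median of 0.42. DESeq2 called 4 higher and 2 lower (backgrounds of 1.51% and 2.33%). HIF binds the letters ACGTGC within a hypoxia response element. Of the 20 glycolysis genes 16 (80.0%) matched a promoter and 3 of these (18.8%) held the letters on either strand in the 250 bases before the start, beside 6.79% of the promoters of genes tested and 4.82% of all promoters. The other targets matched in too few cases (71.4%) for a share. The letters are shown in capitals, as ACGTGC or its reverse complement GCACGT, in 3 genes that were higher in both pairs, from RefSeq on GRCr8 at chr16:53001257-53001306 (plus strand) for Ankrd37, chr1:203155025-203155090 (minus strand) for Bnip3 and chr1:106507988-106508053 (plus strand) for Ldha.
Ankrd37: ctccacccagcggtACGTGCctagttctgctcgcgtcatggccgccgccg
Bnip3: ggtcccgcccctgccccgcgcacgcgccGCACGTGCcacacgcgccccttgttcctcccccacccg
Ldha: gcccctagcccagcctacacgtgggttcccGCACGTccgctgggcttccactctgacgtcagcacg

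In Bnip3 both orientations overlap within the capitals. Bnip3, a mitochondrial receptor for autophagy, was at 20.6 and 18.7 CPM before and 45.1 and 37.3 CPM after differentiation (DESeq2 adjusted p 0.0197). Ldha, the lactate dehydrogenase subunit shown here for its sequence, was at 235 and 297 CPM in D0 libraries against 316 and 437 CPM in VC- libraries, higher in each pair but not called by DESeq2. Ankrd37 had 2 and 18 reads in stem cells and 27 and 164 reads without vitamin C (DESeq2 adjusted p 0.00878). Vegfa, the endothelial growth factor, was at 75.8 and 315 CPM before and 165 and 591 CPM after differentiation (DESeq2 adjusted p 0.0304), with the stem cells of replicate 2 above the differentiated cells of replicate 1. The list also holds genes that were lower. Igfbp3, a carrier of insulin-like growth factors, was at 55.5 and 151 CPM in D0 libraries against 12.4 and 25.4 CPM in VC- libraries (DESeq2 adjusted p 1.60e-05), and Plod2, a lysyl hydroxylase that modifies collagen, was at 100.1 and 178 CPM before and 35.9 and 75.3 CPM after differentiation (DESeq2 adjusted p 0.00561).

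Sterol synthesis genes were lower in most cases, and the fatty acid list was mixed. Of 24 sterol synthesis genes, 22 were lower in both pairs and 0 higher (backgrounds of 30.1% and 28.3%). The median was -0.89 (-0.49 in the replicate 1 pair, -1.05 in the other). DESeq2 called 4 lower (background 2.33%), among them Tm7sf2, Fdps and Stard4. Tm7sf2, a sterol reductase of the pathway, was at 31.7 and 17.9 CPM in D0 libraries against 13.3 and 7.58 CPM in VC- libraries (log2 difference -1.21, SE 0.26, DESeq2 adjusted p 0.0358). Stard4, a carrier that moves cholesterol between membranes, was at 40.6 and 12.2 CPM before and 11.6 and 6.13 CPM after differentiation (DESeq2 adjusted p 0.0297). In both genes every differentiated library was below every stem cell library. Of 29 fatty acid and sphingolipid genes, 13 were lower and 4 higher in both pairs (backgrounds of 30.1% and 28.3%). Of the same genes 12 went in opposite directions (background 41.5%), with pair medians of 0.053 and -0.53. DESeq2 called 1 of them lower, which is 3.45% of the list (background 2.33%), so the call says little about the list. It was Scd1, a stearoyl-CoA desaturase, at 108 and 103 CPM in D0 libraries against 18.6 and 28.3 CPM in VC- libraries (log2 difference -2.18, SE 0.32, DESeq2 adjusted p 1.05e-05). Fasn, the fatty acid synthase, was close to level, at 528 and 423 CPM before and 496 and 457 CPM after differentiation. The respiratory chain list had 30 of 49 genes in opposite directions (background 41.5%) and a median of 0.023.

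Immediate early genes, which cells induce soon after stimulation, were higher, 18 of 25 in both pairs and 2 lower (backgrounds of 28.3% and 30.1%). Their median was 0.84. They were not part of the FGF and ERK feedback list, which was lower more often than higher. DESeq2 called Nr4a1, Fos and Egr1 higher (background 1.51%). Nr4a1, an orphan nuclear receptor, was at 5.42 and 2.56 CPM in D0 libraries against 37.8 and 6.82 CPM in VC- libraries, Fos at 2.77 and 9.07 CPM before and 39.1 and 19.1 CPM after differentiation and Egr1 at 8.95 and 6.44 CPM in D0 libraries against 61 and 19 CPM in VC- libraries, with adjusted p-values of 0.0131, 0.011 and 0.0128. Jun, the partner of Fos, was at 35.4 and 64.8 CPM before and 93 and 110.4 CPM after differentiation. The p53 targets were lower more often than higher (11 against 3 of 22, backgrounds of 30.1% and 28.3%). DESeq2 called Plk2 and Btg2, both lower (background 2.33%). Plk2 was at 91.3 and 55.8 CPM in D0 libraries against 19.2 and 31.2 CPM in VC- libraries. Btg2 was at 220.2 and 162 CPM before and 139 and 54.8 CPM after differentiation. Of 21 chaperone and unfolded protein response genes none was higher in both pairs (background 28.3%) and 8 were lower (background 30.1%). DESeq2 called 1 lower, which is 4.76% of the list (background 2.33%). It was Edem1, which feeds misfolded glycoproteins to degradation, at 74.8 and 93.6 CPM in D0 libraries against 30.5 and 53.4 CPM in VC- libraries. Autophagy genes named by the rule were higher in each pair without a DESeq2 call: Map1lc3a, a coat protein of autophagosomes, was at 31.5 and 43.8 CPM before and 84.5 and 67 CPM after differentiation, and Gabarapl1, its relative, at 46 and 64.8 CPM in D0 libraries against 92.2 and 103 CPM in VC- libraries, while the lysosome and autophagy list had a median of 0.079.

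Of 14 DNA methylation genes, 7 were higher and 5 lower in both pairs (backgrounds of 28.3% and 30.1%), with a median of 0.068. DESeq2 called 1 of them, lower (background 2.33%). It was Uhrf1, which brings the maintenance methyltransferase to replicated DNA, at 60.9 and 54.9 CPM before and 37.7 and 15.6 CPM after differentiation (DESeq2 adjusted p 0.0419). Dnmt1, that methyltransferase, was at 171 and 129 CPM in D0 libraries against 126 and 83.2 CPM in VC- libraries, lower in both pairs, and Dnmt3a, which methylates new sites, at 26.9 and 69.2 CPM before and 40.1 and 71.1 CPM after differentiation, higher in both, with DESeq2 adjusted p-values of 0.377 and 0.895. Of 26 Polycomb and heterochromatin genes 11 were lower and 2 higher in both pairs (backgrounds of 30.1% and 28.3%) and DESeq2 called none. Ezh2, the histone methyltransferase of Polycomb, was at 90 and 43.5 CPM in D0 libraries against 74.6 and 23 CPM in VC- libraries. Among BAF chromatin remodelling subunits Actl6b, the neuron-specific actin-like subunit, was at 2.9 and 7.16 CPM before and 8.02 and 12.3 CPM after differentiation, higher in both pairs (DESeq2 adjusted p 0.356). The 4 nuclear factor I genes, whose proteins the series profiled by ChIP-seq, held different directions. Nfib was at 52.8 and 36.2 CPM in D0 libraries against 26.5 and 17.4 CPM in VC- libraries (log2 difference -1.01, SE 0.24, DESeq2 adjusted p 0.0802) and Nfia at 74.7 and 60.8 CPM before and 62 and 58 CPM after differentiation, both lower in each pair, while Nfic was at 15.5 and 26.9 CPM in D0 libraries against 21.2 and 36.5 CPM in VC- libraries and Nfix at 67.6 and 68.1 CPM before and 87.7 and 83.5 CPM after differentiation, both higher in each pair.

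The microglial and interferon lists differed in replicate 2. The median over interferon response genes was -0.16 in the replicate 1 pair but 1.39 in the other, with no DESeq2 call among 21. Usp18, an interferon-induced protease, was at 0.126 and 24.8 CPM in D0 libraries against 0.349 and 66 CPM in VC- libraries, and Mx2, an interferon-induced GTPase, at 13.2 and 155 CPM before and 9.3 and 416 CPM after differentiation. C1qa, a complement protein of microglia, had no read in the stem cells of replicate 1 and was at 40.7 CPM in those of replicate 2, with 0.349 and 134 CPM without vitamin C. Aif1, the microglial protein IBA1, was at 0 and 22.5 CPM in D0 libraries against 0.233 and 85.1 CPM in VC- libraries. Summed over the list, microglial markers in replicate 2 went from 999 to 1913 CPM while the interferon list went from 876 to 1973 CPM. The part of microglia in the interferon values was not tested. Apoe, a lipid carrier made by astrocytes and microglia, was at 258 and 1620.1 CPM before and 830.0 and 4491 CPM after differentiation, higher in both pairs but not called by DESeq2 (adjusted p 0.0612), and the part of microglia in its values was not tested either.

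Some genes moved by at least 1 log2 unit in both pairs but in opposite directions: 52 were higher in replicate 1 and lower in replicate 2, and 37 were the reverse. Apart from Ret, the genes given here were chosen after their values were seen. Miat, a long non-coding RNA of neural cells, was at 2921 and 1380.0 CPM in D0 libraries against 6808 and 604 CPM in VC- libraries. Cadm4, an adhesion protein, was at 167 and 301 CPM before and 579 and 136 CPM after differentiation, and Mns1, a protein of cilia and flagella, at 14.5 and 16.4 CPM in D0 libraries against 6.98 and 76.3 CPM in VC- libraries. Ret, the receptor of GDNF and named by the rule, was at 47.2 and 145 CPM before and 190.2 and 48.8 CPM after differentiation. For each of these the 2 replicates contradict each other and no direction can be given.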

How the data were processed

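RNA-seq libraries of rat neural stem cells and of cells differentiated without vitamin C were compared, 2 per group, with the 2 libraries with vitamin C kept in the fit to estimate the spread. RNA libraries were prepared with a TruSeq RNA kit, per the labels' protocols. The authors deposited 1 table of CPM over 12187 genes. The submitters' processing notes list Bowtie2 2.1.0, STAR 2.5.1, HOMER 4.9.1, deepTools 2.4.2, CASAVA 1.7 and edgeR 3.12.1 beside the genome build rn5, with no role for any of them. The read counter, annotation and strand setting are not given in the sources used here, so overlapping and near-identical genes may share reads. The listed genes held 60.2% to 67.7% of the total each library was scaled by, so CPM are relative to reads outside the table too.

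Each CPM value was a whole multiple of the library's step (100% of values, tolerance 1e-06), so reads were recovered by division. The genes that reached 1 CPM in 2 or more of the 4 libraries were compared on log2(CPM + 0.5), which understates changes of low genes. The test was limma 3.58.1 in R 4.3.3 with a trend and the replicate number as a block, two-sided, 2 residual degrees of freedom and Benjamini-Hochberg adjustment over all genes tested. edgeR 4.0.16 and DESeq2 1.42.0 ran on the recovered reads as alternatives, and the code was tested on simulated counts. Other alternatives were the pseudocount, filter, scaling, block, trend, libraries in the fit and leaving out each library. A direction in both pairs is the sign of the 2 within-replicate differences. CPM is not divided by gene length, so levels are not compared between genes.

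The members and the 48 gene lists were chosen with earlier results of these data known. The genes named were the 12 with the smallest p per direction that agreed in both pairs and averaged at least 5 CPM in the higher group, for each list up to 3 of smallest p and 3 of highest CPM, a fixed panel, and list members that a sentence counts to 5 or fewer. Some genes that this rule names are not reported here. Any other gene is said to be chosen after its values were seen. Promoters, 250 bases before the start, came from RefSeq (GRCr8) by gene symbol. Intervals and floors cover counting error only. The 18 other samples of the series were not analysed here.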

Additional observations from a re-analysis of the deposited data

How the results depend on the processing

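The count of genes passing limma stayed at 0 in both directions under pseudocounts of 0.1 and 2, no filter, a filter of 5 CPM, both rescalings, no trend, the 4 libraries alone and no replicate block, which left 135 higher and 249 lower at an unadjusted p under 0.05. edgeR gave 0 with and without the block. DESeq2 with the replicate block gave 174 higher and 268 lower, and with no replicate block 18 and 45. Leaving out 1 library gave 0 to 636 higher and 0 to 466 lower, with calls only when a stem cell library was left out. Stem and differentiated libraries share only a replicate number: their deviations from the group means had a correlation of 0.746 across genes, from 2 pairs. The count at least 1 log2 unit higher in both pairs, 211, was 94 with a pseudocount of 2 and 133 with the 5 CPM filter, alternatives added after the data were seen. It was 201 to 305 under the others, and the lower count, 259, was 181 to 299.

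Of 2941 values for the 155 genes named, 2899 kept their direction. Many of these could not change it. In limma the difference is the same by construction without the trend, without the block and with the 4 libraries alone. It is also the same when a library with vitamin C is left out. With the block, Miat was -0.11 by edgeR and -0.14 by DESeq2, and Ret -0.29 and -0.33. Without it, Col1a1 was -0.92 and -0.96, Olig1 0.13 and 0.10, Olig2 0.61 and 0.58, and by DESeq2 Fasn -0.0031 and Pax6 -0.010. Pax6 was -0.057 after quantile normalization. Leaving out 1 library turned the direction of 16 genes, with ranges of -1.0 to 0.30 for Aldoc, -1.02 to 1.66 for Cadm4, -0.54 to 0.15 for Cdk4, -0.90 to 1.43 for Col1a1, -0.47 to 0.79 for Dcx, -0.028 to 0.64 for Dnmt3a, -0.64 to 0.061 for Fabp7, -0.091 to 0.11 for Fasn, -1.16 to 1.19 for Miat, -0.96 to 2.14 for Mns1, -0.29 to 0.66 for Mog, -0.51 to 1.44 for Mx2, -1.29 to 0.18 for Olig1, -0.91 to 0.74 for Olig2, -0.11 to 0.13 for Pax6 and -1.76 to 2.2 for Ret. The cause was not tested. A count of 0 allows up to 0.161 to 0.378 CPM in these libraries, which limits the genes with few reads in replicate 1.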

Other observations

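Genes of the insulin-like growth factor system, a group picked only after its values had been seen, were mostly lower. Insulin-like growth factors signal through a receptor tyrosine kinase, and secreted binding proteins hold them in the medium or matrix. Of 18 such genes in the table, 12 were lower and 2 higher in both pairs (backgrounds of 30.1% and 28.3%). By at least 1 log2 unit 6 were lower and 1 higher (backgrounds of 2.25% and 1.84%). Igfbp2, a binding protein, was at 699 and 1739 CPM in D0 libraries against 222 and 489 CPM in VC- libraries (log2 difference -1.74, SE 0.20, DESeq2 adjusted p 2.02e-10), and Igfbp5 at 407 and 1048 CPM before and 133 and 261 CPM after differentiation. Igfbp4 was at 342 and 731 CPM in D0 libraries against 45.7 and 279 CPM in VC- libraries. In these 3 genes both differentiated libraries were below both stem cell libraries. Igf2r, which clears the ligand Igf2 from the surface, was at 205 and 378 CPM before and 67.8 and 151 CPM after differentiation, and Grb10, an adaptor that dampens the receptor, at 174 and 299 CPM in D0 libraries against 41.6 and 121 CPM in VC- libraries. The ligand Igf2 was the gene on the higher side, at 4.79 and 61.2 CPM before and 16.5 and 876 CPM after differentiation, where the replicates lay far apart and replicate 2 also held the fibroblast and meningeal markers; their part was not tested.

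Of the genes at least 1 log2 unit apart in both pairs, 159 on the higher side and 189 on the lower side belonged to none of the 48 lists. The examples that follow were chosen after their values were seen. On the higher side, Ndrg2, a cytoplasmic protein of astrocytes, was at 104 and 141 CPM in D0 libraries against 459 and 284 CPM in VC- libraries, and Adam11, a catalytically inactive surface protein of neurons, at 15.6 and 16.1 CPM before and 275 and 51.4 CPM after differentiation. Tnr, the matrix protein tenascin R made by oligodendrocytes, was at 2.52 and 3.42 CPM in D0 libraries against 100.3 and 13.2 CPM in VC- libraries. On the lower side, Agrn, the heparan sulphate proteoglycan agrin, was at 1306 and 1387 CPM before and 597 and 671 CPM after differentiation, with near-equal replicates in each group. Mmp2, a secreted gelatinase, was at 441 and 656 CPM in D0 libraries against 56.4 and 311 CPM in VC- libraries, and Txn1, the cytosolic thioredoxin, at 497 and 135 CPM before and 62.9 and 31.2 CPM after differentiation. Hif3a, a HIF subunit that restrains the others, was at 44.9 and 13.3 CPM in D0 libraries against 8.49 and 4.03 CPM in VC- libraries, lower in both pairs. DESeq2 called each of these 7 genes.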
